A study of Mus musculus with 3 samples.

Results

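The Krüppel-like factor (KLF) genes Klf2, Klf3, Klf4, Klf5, Klf6, Klf7, Klf9, Klf10, Klf13 and Klf15 were followed across 3 RNA-Seq libraries of C2C12 cells, a mouse myoblast line that forms myotubes when serum is lowered. These 10 genes were picked by symbol from the 22068 genes in the files, and all 10 were found. The family was singled out because Klf2 had been seen raised with Linc-RAM overexpression, so the overexpression values of Klf2 are given as a description and not as evidence. Linc-RAM is a muscle long non-coding RNA listed as 2310015B20Rik. The first library came from cells stably infected with a lentivirus that carried Linc-RAM, cloned behind a CMV promoter in a vector with EGFP. The second came from cells that carried a short hairpin RNA against Linc-RAM, driven by a U6 promoter. The third, the control, came from cells that carried the empty vector. All cells were selected with blasticidin and kept for 12 h in differentiation medium with 2% horse serum, and polyadenylated RNA was sequenced. Each condition was 1 library from 1 stable line, so differences between conditions could not be checked in replicates, and the control library is shared by both comparisons with it. Which of the study's hairpins was used, and whether the empty vector held EGFP, is not given in the sources used here.

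KLF proteins are transcription factors that bind CACCC boxes and related GC-rich DNA through zinc fingers at the C-terminal end. The rest of each protein differs, and so some members mainly activate and others mainly repress, often through CtBP or Sin3A corepressors. In other cells Klf2 and Klf4 are known as genes that the kinase ERK5 switches on through MEF2 factors, which are also cofactors of the MyoD family in muscle. Klf15 is known in muscle as a glucocorticoid-induced gene of amino acid and lipid use. In mm9, the build the authors used, the 10 genes lie on 10 different chromosomes, and by the GENCODE annotation all are protein-coding. Klf2 spans chr8:74842932-74845555. Klf4 spans chr4:55540013-55545347. Klf5 spans chr14:99697910-99712624. Klf7 spans chr1:64076021-64168856.

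The libraries were of unequal depth. The read totals recovered from the values were 2105513 with overexpression, 1878146 with knockdown and 5130481 in the control. Linc-RAM itself was at 1.07 RPKM (reads per kilobase of gene, scaled to the size of the library) with overexpression and was listed at 0 in the knockdown and control libraries, which is too low to test the labels. All 7 listed markers of myoblasts and early myocytes reached 1 RPKM in at least 1 library, and their summed level was 611 RPKM with overexpression, 230 RPKM with knockdown and 391 RPKM in the control. Of these 7, 3 were at least 2-fold higher than the control with overexpression (Myog, Itga7 and Myod1), against 3.64% of all genes compared, and 2 at least 2-fold lower with knockdown (Cdh15 and Des), against 4.19%. Des made up most of the sums, at 386 RPKM with overexpression, 145 RPKM with knockdown and 291 RPKM in the control. Itga7 and Chrna1 had ratios of 1.05 and 1.15 with knockdown. The part of these markers in the KLF values was not tested. Since Klf2 and Klf4 are also known from endothelium and epithelium, markers of those cells were read. None of 8 endothelial markers reached 1 RPKM in any library, their summed level lay between 0.105 and 0.535 RPKM, and Kdr, Tie1, Vwf and Cldn5 were listed at 0 in all 3. Of 6 epithelial markers 1 (Krt14) reached 1 RPKM, and Epcam, Cdh1, Krt18 and Krt5 were listed at 0 in all 3. The summed epithelial level was 6.29 RPKM with overexpression, 11.9 RPKM with knockdown and 8.91 RPKM in the control. In such bulk RNA, a change in the number of cells that express a gene cannot be told apart from a change in RNA per cell.

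The promoters of Klf2 and Klf4 are shown because these genes had the largest differences among the members. Each line holds the 250 bases before the RefSeq start site, 5′ to 3′ on the strand of the gene (RefSeq sequences, found once each in the mm9 genome by exact match). Klf2 lies on the plus strand at chr8:74842711-74842960, where the last 29 bases of the window lie inside the gene as GENCODE annotates it, and Klf4 lies on the minus strand at chr4:55545348-55545597. Capitals mark CACCC boxes on either strand, E-boxes (CANNTG, the class of site that MyoD binds) and matches to the MEF2 consensus.
Klf2: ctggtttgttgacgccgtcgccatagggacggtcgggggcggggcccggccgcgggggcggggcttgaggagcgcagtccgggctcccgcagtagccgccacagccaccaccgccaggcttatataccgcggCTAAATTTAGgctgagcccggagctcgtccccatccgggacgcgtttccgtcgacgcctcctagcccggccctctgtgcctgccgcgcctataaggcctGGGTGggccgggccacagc
Klf4: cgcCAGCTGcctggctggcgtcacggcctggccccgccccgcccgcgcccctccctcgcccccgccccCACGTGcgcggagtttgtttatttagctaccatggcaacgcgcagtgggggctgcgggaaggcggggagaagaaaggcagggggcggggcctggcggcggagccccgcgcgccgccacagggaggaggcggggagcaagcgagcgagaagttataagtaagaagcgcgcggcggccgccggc
The Klf2 window held 1 MEF2 match and no E-box, and its 1 CACCC box fell in the 29 bases inside the annotated gene. The Klf4 window held 2 E-boxes, 1 of them CAGCTG, and neither a CACCC box nor a MEF2 match. A table of RefSeq promoters held 8 of the 10 members, and those of Klf5 and Klf10 were not read. The MEF2 match was present in 1 of these 8 members and in 2.92% of all 32851 promoter windows, and CAGCTG in 1 of 8 and in 13.0% of all windows. E-boxes of any kind were in 6 of 8 members and in 66.2% of all windows. CACCC boxes were in 6 of 8 members (52.0% of all windows), and GGGCGG, a GC box, was in 7 of 8 (32.7%). CCAAT was in 4 of 8 (33.8%) and TATAAA in 0 of 8 (12.4%), all searched on both strands. The median GC content of the 8 windows was 71.4%, against 52.4% over all windows. These are matches of letters in a window and not sites shown to be bound.

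At the level of single genes, Klf6 was the most abundant of the 10 in every library and Klf15 the least. RPKM is per length, so levels can be set side by side between genes, and the intervals given with them are exact Poisson intervals at 95% that cover counting error only. Klf6, a widely expressed early response factor, was at 39.9 RPKM with overexpression (35.8 to 44.2), 33.8 RPKM with knockdown (29.9 to 38.1) and 35.5 RPKM in the control (33.1 to 38.1). Klf3, a repressor that works with CtBP, stood second in the knockdown and control libraries, at 18.6 and 15.4 RPKM. In the overexpression library Klf4 and Klf3 came next after Klf6, at 21.5 and 20.9 RPKM, with overlapping intervals.

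The order of the members below Klf6 differed between the libraries mainly through Klf2 and Klf4. In the overexpression library Klf2 was the fourth of the 10 at 15.7 RPKM, and its interval overlapped those of Klf3 above it and Klf13 below it. In the knockdown and control libraries Klf2 was the ninth, at 1.47 and 1.93 RPKM, above Klf15 alone. Klf4 was the sixth with knockdown and the seventh in the control, where its interval overlapped those of Klf7 above it and Klf9 below it. Neighbours in the order were apart beyond counting error between Klf6 and the next gene in all 3 libraries. They were also apart between Klf13 and Klf10 in the overexpression and control libraries and between Klf2 and Klf15 in the control. All other neighbours with reads overlapped.

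**Figure D1:**
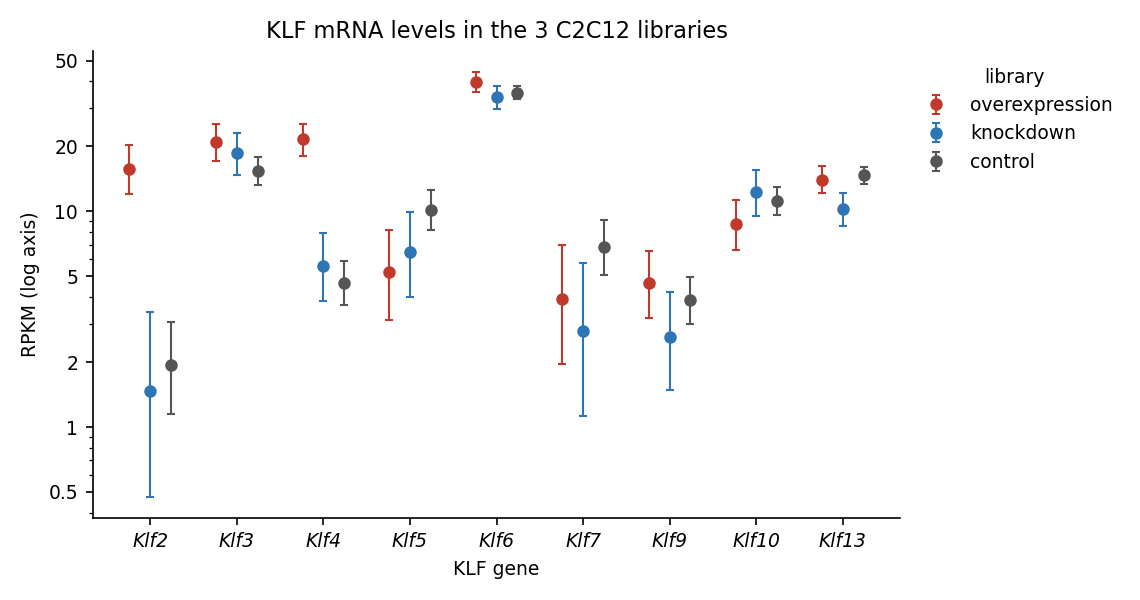
RPKM (log axis) of 9 KLF genes in the overexpression, knockdown and control libraries, 1 library each, with exact 95% Poisson intervals from the recovered reads. Klf15, at or near 0, is not drawn. The overexpression points of Klf2 (15.7 RPKM) and Klf4 (21.5 RPKM) stand above those of the other libraries, and the intervals of Klf6 and Klf3 lie close together.

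Of the 10 members, 9 had a mean of at least 1 RPKM over the 3 libraries and were compared as ratios of RPKM. All 9 also had at least 1 RPKM in every library, so none passed that filter through a single high library. The interval given with a ratio is an exact Clopper-Pearson interval at 95% from the reads of 2 libraries. It covers counting error between those libraries and not the spread between cultures. The call was set at a change of 2-fold.

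With Linc-RAM overexpression, Klf2 and Klf4 were higher by more than 2-fold and no member was lower by that much. Among all 10165 genes compared, a level 2-fold higher or more was seen for 3.64%, and 2-fold lower or more for 3.47%. Klf2 in this comparison led to the choice of the family, and values of Klf4 and Klf7 had been seen as well. Nothing is therefore read from the count of 2 of 9. Klf2, known for keeping endothelium and T cells quiescent, was at 15.7 RPKM with overexpression and 1.93 RPKM in the control, from 60 and 18 reads. The ratio was 8.12 (95% interval 4.73 to 14.6), the 21st highest of 10165. Klf4, a reprogramming factor that also halts proliferation in epithelia, was at 21.5 RPKM with overexpression and 4.67 RPKM in the control, from 138 and 73 reads. Its ratio was 4.61 (3.44 to 6.20), the 59th highest. The intervals of these ratios overlapped, so the ratio of Klf2 was not distinguishable from that of Klf4 at this depth.

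The other 7 members compared with overexpression lay between 0.514 and 1.36 of the control. Klf5, which drives proliferation in epithelia and vascular smooth muscle, was just short of the threshold at 5.23 RPKM with overexpression and 10.2 RPKM in the control. Its ratio of 0.514 (0.296 to 0.851) came from 19 and 90 reads and was the member nearest to 2-fold from outside, while Klf4 was the nearest inside. Klf7, a factor of axon growth in neurons, was at 3.92 RPKM with overexpression and 6.87 RPKM in the control, a ratio of 0.570 (0.267 to 1.12), with an interval that reached past 1. The reads of Klf7 are a lower estimate, so this interval may be too wide. Klf3 was at 20.9 RPKM with overexpression and 15.4 RPKM in the control, a ratio of 1.36 (1.06 to 1.74). Klf6, Klf9, Klf10 and Klf13 had ratios of 1.12, 1.20, 0.780 and 0.955, each with an interval that held 1. In all, the interval lay above 1 for 3 of 9 members (Klf2, Klf3 and Klf4) and below 1 for 1 of 9 (Klf5), against 9.40% and 8.60% of all genes. Such shares of all genes are if anything too low, since the reads of most genes are lower estimates. At a threshold of 1.5-fold, 2 of 9 members were higher (Klf2 and Klf4) and 2 of 9 lower (Klf5 and Klf7), against 10.6% and 9.52% of all genes. Values of Klf2, Klf4 and Klf7 had been seen before, so nothing is read from these counts either. The median log2 ratio of the 9 members was 0.17, beside 0.00 for all genes compared, with 5 members above the control and 4 below it.

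**Figure D2:**
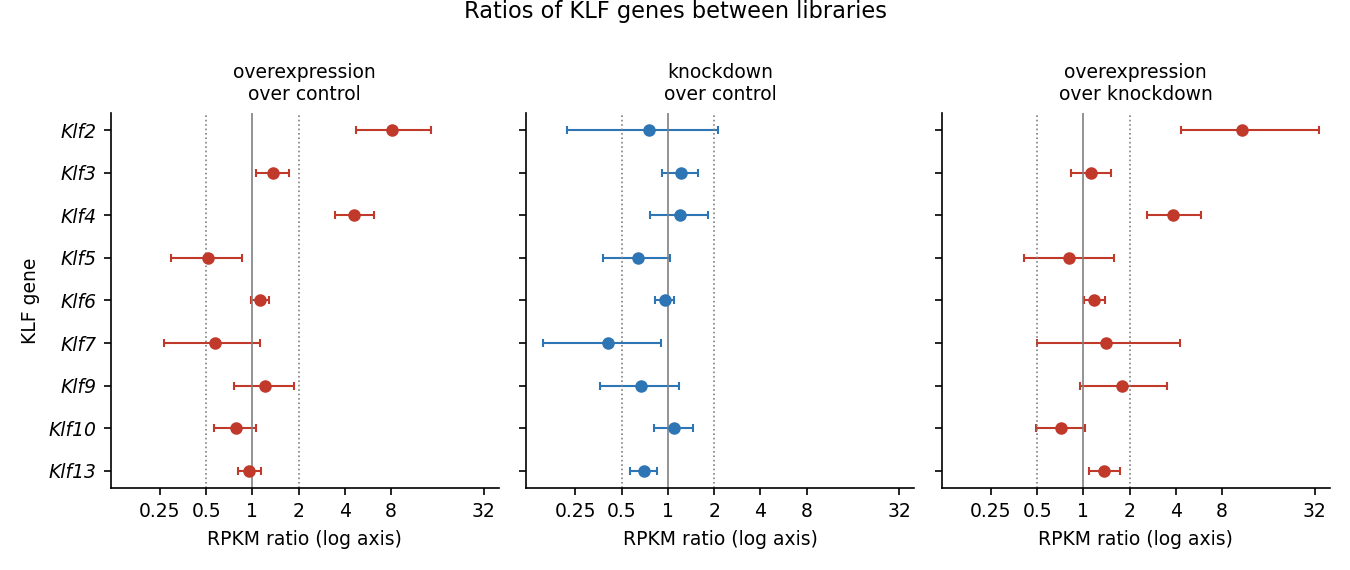
RPKM ratios (log axis) of 9 KLF genes for overexpression over control, knockdown over control and overexpression over knockdown, with exact 95% Clopper-Pearson intervals that cover counting error only. The solid line marks a ratio of 1 and the dotted lines 2-fold. Klf2 and Klf4 lie right of the upper dotted line in the left and right panels, and Klf7 lies left of the lower dotted line in the middle panel.

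With Linc-RAM knockdown, Klf2 and Klf4 were not distinguishable from the control and Klf7 was lower. Among all 10165 genes compared, the share past 2-fold was 3.38% on the higher side and 4.19% on the lower side, and among the members 0 of 9 were higher and 1 of 9 was lower. Klf7 was at 2.79 RPKM with knockdown and 6.87 RPKM in the control, from 7 and 47 reads. Its ratio was 0.407 (0.155 to 0.906), an interval that ranges from near 1 to well past 2-fold. Exons of Klf7 overlap those of the predicted genes Gm13748 and Gm17427 on the other strand in GENCODE. Whether the counting used strand is not given in the sources used here, so reads of these genes cannot be told apart from those of Klf7.

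Klf2 was at 1.47 RPKM with knockdown and 1.93 RPKM in the control, a ratio of 0.759 (0.220 to 2.12) from 5 and 18 reads. A change of 2-fold in either direction would thus not have been detectable for Klf2 at this depth. Klf4 was at 5.60 RPKM with knockdown and 4.67 RPKM in the control, a ratio of 1.20 (0.765 to 1.84) from 32 and 73 reads, so that its counting interval lay within 2-fold on both sides. Klf13, a repressor first found as a T cell factor, was at 10.2 RPKM with knockdown and 14.7 RPKM in the control, and its ratio was 0.697 (0.567 to 0.851). Klf5 and the thyroid hormone and glucocorticoid response gene Klf9 had ratios of 0.637 (0.376 to 1.03) and 0.672 (0.363 to 1.18). Klf5 was at 6.48 RPKM and Klf9 at 2.61 RPKM with knockdown, against 10.2 and 3.88 RPKM in the control, and Klf5 was the member nearest to 2-fold from outside. Klf3, Klf6 and Klf10 lay between 0.952 and 1.21 of the control, and their intervals held 1. The interval lay below 1 for 2 of 9 members (Klf7 and Klf13), against 10.4% of all genes, and above 1 for 0 of 9, against 8.99%. At a threshold of 1.5-fold, 0 of 9 members were higher and 2 of 9 lower (Klf5 and Klf7), against 10.5% and 12.1% of all genes. Values of Klf7 had been seen before, so nothing is read from the counts that hold it. The median log2 ratio of the members was -0.40, beside -0.02 for all genes, with 3 members above the control and 6 below it. At a mean of at least 5 RPKM, where 7 members remained and Klf7 and Klf9 were left out, the median was -0.07 and the count of members 2-fold lower was 0.

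Set against each other without the control, the overexpression and knockdown libraries differed most in Klf2 and Klf4 among the members. Klf2 was 10.7-fold higher with overexpression than with knockdown (4.34 to 34.2, 60 and 5 reads) and Klf4 3.85-fold higher (2.60 to 5.84, 138 and 32 reads), and no member was at least 2-fold lower. Past 2-fold lay 5.83% of 10146 genes on the higher side and 5.11% on the lower side in this comparison, which shares the overexpression library with the one that led to the choice of the family. Klf9 came next at 1.78 (0.951 to 3.48), with 4.66 RPKM with overexpression and 2.61 RPKM with knockdown. Klf13, at 14.0 RPKM with overexpression and 10.2 RPKM with knockdown, and Klf6 had ratios of 1.37 (1.09 to 1.73) and 1.18, the interval of Klf6 reaching from just above 1 to 1.39. Klf10, the TGF-β-inducible early gene, had the lowest ratio of the members at 0.714 (0.493 to 1.03), with 8.73 RPKM with overexpression, 12.2 RPKM with knockdown and 11.2 RPKM in the control. The interval lay above 1 for 4 of 9 members (Klf2, Klf4, Klf6 and Klf13), against 9.64% of all genes, and below 1 for 0 of 9, against 8.17%. Klf6 counts here by a lower limit of 1.0025. Dividing by either of the 2 scalings used (1.016 and 1.045) would bring 1 into its interval. At a threshold of 1.5-fold, 3 of 9 members (Klf2, Klf4 and Klf9) were higher and 0 of 9 lower, against 14.3% and 12.6% of all genes. The counts of members higher hold Klf2 and Klf4, seen before, so nothing is read from them. The median log2 ratio of the members was 0.45, beside 0.02 for all genes.

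**Figure D3:**
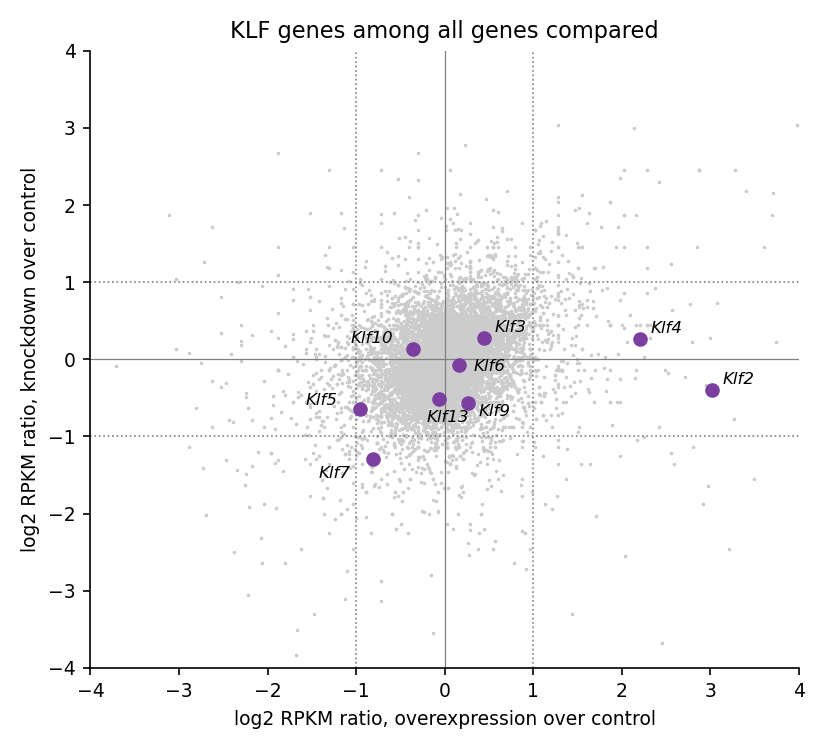
Log2 RPKM ratio with overexpression over control (x axis) and with knockdown over control (y axis) for 10122 genes with a mean of at least 1 RPKM and a value above 0 in all libraries (grey, 9 beyond the axes) and 9 KLF genes (purple). Dotted lines mark 2-fold. Both axes share the control library. Klf2 and Klf4 lie far right near the horizontal zero line, and Klf7 and Klf5 lie to the lower left.

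Klf15 could not be compared. It was listed at 0 RPKM with overexpression and with knockdown and at 0.085 RPKM in the control, which is 1 read. With no read in a library, up to 3 reads could have been missed, which corresponds to 0.621 RPKM with overexpression and 0.697 RPKM with knockdown. The level of Klf15 in the control was below these limits.

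Summed over the 10 members, KLF mRNA was at 135 ± 9.23 RPKM with overexpression, 93.9 ± 7.96 RPKM with knockdown and 104 ± 5.19 RPKM in the control (±, 95% counting error propagated from the reads). Relative to the control these sums were at 1.29 and 0.899. Without Klf2 and Klf4 the sums were 97.4 RPKM with overexpression, 86.8 RPKM with knockdown and 97.9 RPKM in the control. The other members thus summed to similar levels with overexpression and in the control, with Klf3, Klf6 and Klf9 higher and Klf5, Klf7, Klf10 and Klf13 lower. Klf2 with overexpression led to the choice of the family, and values of Klf4 had been seen as well. Nothing is therefore read from their part in the sum. Klf2 made up 11.7% of the family's RPKM with overexpression, 1.56% with knockdown and 1.85% in the control, and Klf4 made up 16.0%, 5.96% and 4.47% in the same libraries.

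**Figure D4:**
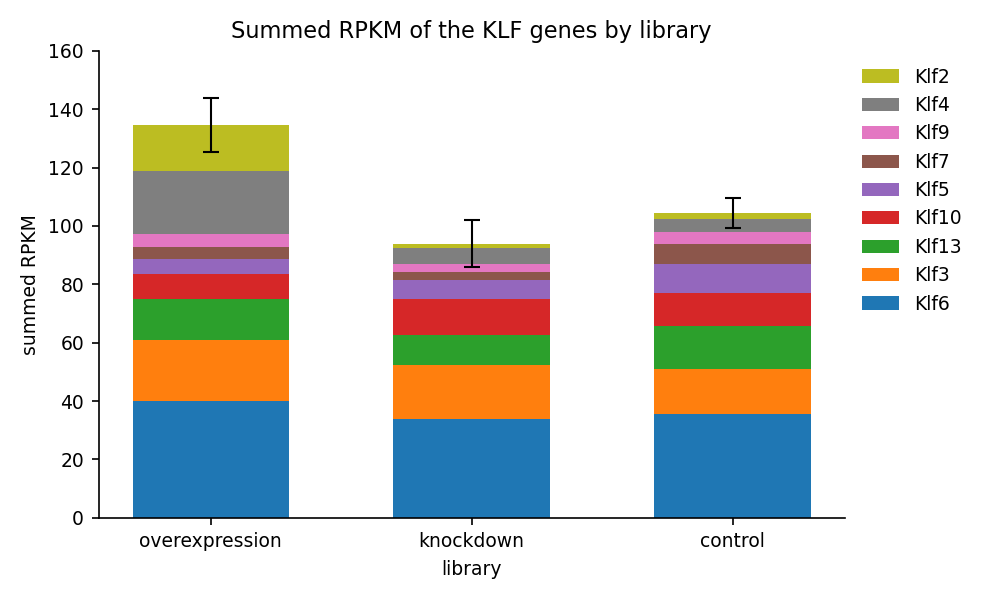
Summed RPKM of the KLF genes in the overexpression, knockdown and control libraries, stacked by gene. Error bars are 95% counting error of the sum. The Klf4 and Klf2 segments at the top of the overexpression bar are 21.5 and 15.7 RPKM high, and the segments below them add to similar heights in the overexpression and control bars.

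The genes whose pattern was most like that of Klf2 were sought among 5894 genes with a mean of at least 5 RPKM, as the shortest distance in the plane of log2 ratios with overexpression and with knockdown over the same control. With 3 libraries this likeness is a description only. The nearest to Klf2 were Alox5, an enzyme of leukotriene synthesis (distance 0.45), Serpinb9b (0.55), the myogenic factor Myog (0.60), the fast-fibre α-actinin Actn3 (0.88) and Klf4 (1.05). Klf2 and the 4 genes nearest to it reached 5 RPKM in the overexpression library alone, so the filter on the mean favoured genes high there, and the distance uses the overexpression ratio of Klf2 by which the family was chosen. Myog was at 22.1 RPKM with overexpression, 3.60 RPKM with knockdown and 3.95 RPKM in the control. The nearest to Klf4 were Tppp3 (0.23), Actn3 (0.24), Igfbp5, which codes for an IGF-binding protein (0.33), St3gal1 (0.44) and Pla1a (0.45). Of these, Actn3 and Pla1a reached 5 RPKM in the overexpression library alone. The nearest to Klf7 were 2010107H07Rik (0.07), Wnt10a (0.10), Mapk1ip1 (0.16), Cdc42ep5 (0.16) and the amino acid transporter gene Slc7a5 (0.17). All were lower than the control in both lines, which follows from the distance used. Mapk1ip1 and Slc7a5 reached 5 RPKM in the control library alone.

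The 2 other KLF genes and 5 SP genes that could be compared were each within 2-fold of the control in both lines. Of the 7 other KLF genes, Klf11 and Klf16 had a mean of at least 1 RPKM, while Klf1, Klf14 and Klf17 were listed at 0 in all libraries and Klf8 had 1 read in the control. Klf12, below this filter, was at 0.994 RPKM with overexpression, 0.372 RPKM with knockdown and 0.374 RPKM in the control, from 12, 4 and 11 reads in that order, and was not compared. Klf11, a paralogue of Klf10, was at 5.25 RPKM with overexpression, 2.81 RPKM with knockdown and 3.38 RPKM in the control. Its ratios to the control were 1.55 (1.04 to 2.30) and 0.831 (0.484 to 1.37). Klf16 had ratios of 0.937 with overexpression and 0.931 with knockdown, both with intervals that held 1. Of 9 SP genes 5 were compared (Sp1, Sp2, Sp3, Sp4 and Sp6), and 0 of 5 were at least 2-fold from the control in either line. None of 15 genes of KLF corepressors and coactivators, among them Ctbp1, Ctbp2, Sin3a and Ep300, differed by 2-fold from the control in either line, with median log2 ratios of -0.06 with overexpression and -0.02 with knockdown. Of all genes, 3.64% were higher and 3.47% lower by 2-fold with overexpression, and 3.38% and 4.19% with knockdown.

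Genes of the ERK5 and MEF2 arm, which acts upstream of Klf2 and Klf4 in endothelium, were compared for 13 of 15 listed. The list mixes genes that drive the arm with genes that restrain it, so its counts and medians do not give the activity of the arm. With overexpression 1 of 13 was higher by 2-fold and 0 were lower, close to the 3.64% and 3.47% of all genes, with a median log2 ratio of -0.01. Heg1, a receptor that restrains this arm together with the CCM proteins, was at 14.9 RPKM with overexpression and 6.97 RPKM in the control, a ratio of 2.14 (1.71 to 2.68). Mapk7, the gene of ERK5, had a ratio to the control of 0.919 in the overexpression library (0.705 to 1.19) and of 0.745 in the knockdown library (0.550 to 0.995). Mef2a and Mef2d had ratios of 1.01 (0.733 to 1.37) and 1.17 (0.839 to 1.61) with overexpression. Intervals below 1 in that library were seen for Map3k3 at 0.587 (0.371 to 0.901) and Hdac7 at 0.594 (0.464 to 0.753). Of the 13 genes, 6 were above the control and 7 below it with overexpression. With knockdown, where 3.38% and 4.19% of all genes were called, 0 of 13 were higher by 2-fold and 1 was lower, the class IIa histone deacetylase gene Hdac4 at 0.489 (0.241 to 0.912), and the median was -0.26. Ccm2 was just short of 2-fold lower at 0.512 (0.305 to 0.821), while Hdac7 was higher at 1.36 (1.13 to 1.63).

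Genes known as KLF2 or KLF4 targets in endothelium and other cells gave a mixed picture. Of 18 listed, 11 were compared. With overexpression 2 were at least 2-fold higher and 0 lower, against 3.64% and 3.47% of all genes, with a median log2 ratio of 0.03. Those higher were the keratin gene Krt19 at 21.9-fold (5.25 to 195, 18 and 2 reads) and Sprr1a, an epidermal envelope protein, at 4.87-fold (1.04 to 30.1, 6 and 3 reads). Krt19 was put on the list after its values in the study's supplement had been seen, and Sprr1a passed the filter through the overexpression library alone, so nothing is read from this count. Cdkn1a, the cell cycle inhibitor p21 and a KLF4 target, was at 93.8 RPKM with overexpression, 38.9 RPKM with knockdown and 61.3 RPKM in the control. Its ratios to the control were 1.53 (1.35 to 1.74) and 0.635 (0.527 to 0.760). Thbd and S1pr1, targets of KLF2 in endothelium and T cells, had ratios of 0.790 (0.556 to 1.10) and 0.812 (0.575 to 1.13) with overexpression. Their ratios with knockdown were 0.678 (0.457 to 0.983) and 0.576 (0.378 to 0.853). With knockdown 2 of the 11 compared were at least 2-fold higher and 2 lower, against 3.38% and 4.19% of all genes. Those higher were Krt19 at 8.20-fold (1.47 to 83.0) and Cdkn1c at 5.46-fold (2.06 to 16.0). Cdkn1c passed the filter through the knockdown library alone, at 3.84 RPKM against 0.734 RPKM with overexpression and 0.703 RPKM in the control. Since Krt19 was listed with its values known, nothing is read from the count of those higher. Those lower were Ccl2 at 0.283 (0.181 to 0.425) and Sprr1a. Sprr1a was listed at 0 with knockdown from 0 reads, against 3 reads in the control, with an upper limit of the ratio of 6.61. The median log2 ratio with knockdown was -0.34.

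Smooth muscle markers, some of which KLF4 is known to repress in vascular cells, had a lower summed level in both lines. Of 4 compared, 3 were at least 2-fold lower with overexpression (Cnn1, Tagln and Acta2) and 2 with knockdown (Cnn1 and Tagln), against 3.47% and 4.19% of all genes, and Myh11 was listed at 0 in all libraries. Tagln was at 60.8 RPKM with overexpression, 74.2 RPKM with knockdown and 182 RPKM in the control. Cnn1 was at 2.63 RPKM with overexpression, 4.56 RPKM with knockdown and 11.9 RPKM in the control. Acta2, which made up most of the sum, was at 373 RPKM with overexpression, 544 RPKM with knockdown and 985 RPKM in the control, while Smtn had ratios of 0.939 and 1.03. The summed level of the 5 listed markers was 453 RPKM with overexpression, 641 RPKM with knockdown and 1196 RPKM in the control. Neither a part of Klf4 in the levels of these genes nor their part in the KLF values was tested.

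Targets tied to Klf15 and to Klf10 were read as well. Of 11 genes of KLF15 and of the glucocorticoid response, 0 lay 2-fold or more from the control in either line. Of all genes, 3.64% were higher and 3.47% lower by that much with overexpression, and 3.38% and 4.19% with knockdown. The median log2 ratios of the 11 genes were -0.25 with overexpression and 0.25 with knockdown. With overexpression the interval lay above 1 for the glucocorticoid-induced genes Sgk1, at 1.80 (1.12 to 2.87), and Mt2, at 1.56 (1.04 to 2.33). It lay below 1 for Fkbp5 at 0.672 (0.468 to 0.947), Pdk4 at 0.708 (0.530 to 0.936), Fbxo32 at 0.725 (0.557 to 0.933) and Foxo1 at 0.673 (0.472 to 0.941). With knockdown it lay above 1 for Pdk4 at 1.64 (1.31 to 2.03), Foxo1 at 1.36 (1.03 to 1.78) and Foxo3 at 1.55 (1.12 to 2.12). Of 9 TGF-β-induced genes, 0 were at least 2-fold from the control with overexpression, against the same shares of all genes. With knockdown 0 were higher by 2-fold and 1 was lower, against 3.38% and 4.19%. The gene lower was Ctgf, a matricellular growth factor gene, at 39.9 RPKM with overexpression, 4.65 RPKM with knockdown and 21.7 RPKM in the control. Its ratios to the control were 1.84 (1.52 to 2.21) and 0.214 (0.130 to 0.334). With overexpression 3 of the 9 genes were above the control and 6 below it, with a median log2 ratio of -0.12. The interval there lay below 1 for Junb at 0.694 (0.570 to 0.841), Ltbp2 at 0.693 (0.602 to 0.795) and Tgfb1 at 0.698 (0.490 to 0.978). With knockdown 2 were above the control and 7 below it, with a median of -0.12.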

How the data were processed

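RNA from 3 C2C12 lines was sequenced, 1 library per condition. The authors aligned the reads with TopHat, for which the submitters' processing notes give version 1.4.1, to the mm9 build. With DEGSeq the authors derived the deposited values, in RPKM, for each gene in each library. The sources used here do not give the gene annotation, strand use, the treatment of multiply mapped reads or the read totals.

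Ratios were taken from the deposited RPKM values without a pseudocount, for genes with a mean of at least 1 RPKM in the 3 libraries. Genes called were at least 2-fold apart. With 1 library per condition no p-value was computed. A gene with k reads gives k/(RPKM × length) in proportion to the read total, so the total was taken where values of k up to 10 and GENCODE transcript lengths met most often (919 pairs with overexpression, 751 with knockdown and 778 in the control, against a median of 1 per total). The reads of each gene were computed from a GENCODE length that gave whole reads in all 3 libraries within 1e-05 of the count plus 0.0005 reads, and otherwise at the smallest length from 200 nt that did. This gave 5 of the 9 members compared reads at a GENCODE length. Of all 10172 genes with a mean of at least 1 RPKM, it did so for 2394 (23.5%). The reads of the other genes are lower estimates. The shares of all genes with an interval above or below 1 are thus if anything too low beside the members. For Klf2, Klf4, Klf5 and Klf7 the reads are a lower estimate, so their intervals are if anything too wide. This matters most for Klf7, whose reads were computed at 1334 nt while its longest GENCODE transcript has 7664 nt. PCR duplicates cannot be seen, and intervals cover counting error only. On simulated data for overexpression over control, reads lay at or below the simulated ones in 100% of 500 genes, which taking the smallest fitting length favours. Of 2014 intervals computed from the simulated reads and totals themselves, 96.5% held the simulated ratio. This does not test intervals computed from recovered reads.

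The members and gene lists were chosen with earlier results of these data known. All members are named. The genes most like a member are the 5 nearest by log2 ratios, and genes of the other lists were named by preference where 2-fold apart. Alternatives were another or no filter, 1 or 0.1 RPKM added, 2 scalings and a 1.5-fold threshold. The scripts ran in Python 3.11.15 with scipy 1.17.1, matplotlib 3.10.9, pandas 2.3.3 and numpy 2.4.6.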

Additional observations from a re-analysis of the deposited data

How the results depend on the processing

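Of 108 member ratios recomputed with an added constant or another scaling, 108 stayed within the counting interval of the reported ratio and 0 changed side of 1. With 1 RPKM added, the ratios of Klf2 and Klf4 with overexpression over control were 5.69 and 3.97. The numbers of members at least 2-fold higher were the same with these constants and scalings. They were also the same at a mean of at least 5 RPKM, which Klf2 passed through the overexpression library alone, so that its call could not be lost there. At a mean of at least 5 RPKM the number lower with knockdown was 0, since Klf7 was no longer compared. At a threshold of 1.5-fold the number of members lower was 2 with overexpression over control (Klf5 and Klf7, beside 9.52% of all genes) and 2 with knockdown over control (Klf5 and Klf7, beside 12.1%), and the number higher with overexpression over knockdown was 3. Scaling to the median of all genes or to sums without the 100 most abundant genes moved log2 ratios by at most 0.06. Either scaling would bring 1 into the interval of Klf6 with overexpression over knockdown, so the count of intervals above 1 depends on it. Klf2 and Klf7 had 5 and 7 recovered reads with knockdown, both lower estimates, which limits their ratios, and spread between cultures was not measured. No paired analysis was possible because each condition had 1 library.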
